A study of Homo sapiens with 4 samples.

Results

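The long noncoding RNAs (lncRNAs) described here carry small RNAs inside their own genes. They comprise 24 snoRNA host genes, found as lncRNA genes named SNHG with a number together with GAS5, and 27 microRNA host genes, found as lncRNA genes whose names run from MIR to HG. These 51 genes, with 279 listed transcripts, stood among 2052 lncRNA genes and 16371 genes of all types in the deposited table. The shDUSP23 cells were A549, a human lung adenocarcinoma line, with a knockdown of DUSP23, a small dual-specificity phosphatase. The shMock cells were the same line with a mock hairpin and a genotype given as wild type. RNA came from clusters of these cells, and each group had 2 libraries, numbered 1 and 2. The labels do not say whether the replicates were separate cultures, so p-values speak only to the spread among these 4 libraries. Clone numbers, the hairpin sequence and the sense of SUS in the titles are not given in these sources.

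Small nucleolar RNAs (snoRNAs) guide chemical changes on other RNAs: those with C and D boxes direct ribose methylation of ribosomal RNA, and those with H and ACA boxes direct the conversion of uridine to pseudouridine. Their relatives in Cajal bodies, the scaRNAs, do the same for spliceosomal RNAs. In human cells most snoRNAs are cut from introns after splicing. Many of the lncRNA hosts leave a spliced exon RNA that is translated poorly and broken down by nonsense-mediated decay, and several begin with the pyrimidine tract that marks transcripts of the translation machinery. A microRNA host is instead the transcript from which a hairpin is cut in the nucleus, later yielding a microRNA that pairs with messenger RNAs through its seed. The libraries were made with an mRNA kit, so the values below describe the long host transcripts. Mature microRNAs and the snoRNAs of these hosts were not measured. The few snoRNA genes that were tested are no members and are given at the end.

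Levels are given in FPKM, fragment numbers divided by transcript length and library total, summed over the listed transcripts of a gene. DUSP23 itself had 1.71 and 2.71 FPKM in shDUSP23, against 30.0 and 35.9 FPKM in shMock, and fell by 3.64 on the log2 scale (SE 0.22, limma adjusted p = 3.12e-05). The libraries held an estimated 26970900 and 42159500 fragments in shDUSP23 and 21271900 and 25283700 in shMock. Though highest in this estimate, shDUSP23 replicate 2 had the most transcripts at 0 FPKM, 9946, against 4814 in shDUSP23 replicate 1 and 2930 and 4334 in shMock. The reason was not tested. The Pearson correlation of log2 levels was 0.97 between the shDUSP23 libraries, 0.99 between the shMock libraries and 0.88 to 0.91 between groups. All 6 epithelial markers reached 1 FPKM, and their summed level was 2014 and 2085 FPKM in shDUSP23, against 2650.4 and 2561 FPKM in shMock. Of the 6, 4 were lower with a limma adjusted p under 0.05 (66.7%, against 22.2% of all tested genes) and 0 were higher. When FPKM were rescaled to give the libraries an equal total, 1 of the 6 was lower by this cutoff and 0 were higher. The markers had a median log2 fold change of -0.39 as deposited and -0.05 after rescaling. The medians of all tested genes were 0.03 and 0.34 in the same order. CDH1 had 6.20 and 8.14 FPKM in shDUSP23, against 22.4 and 21.5 FPKM in shMock, and fell by 1.56 (SE 0.17, limma adjusted p = 0.000288). KRT18 had 702 and 696 FPKM in shDUSP23 and 976 and 922 FPKM in shMock, and fell by 0.44 (SE 0.12, limma adjusted p = 0.0162). After rescaling, the log2 fold change was -1.24 for CDH1 and -0.10 for KRT18. Of 10 markers of leukocytes, endothelium and fibroblasts, 4 were listed and 2 reached 1 FPKM, with sums of 99.5 and 136 FPKM in shDUSP23, against 27.6 and 26.1 FPKM in shMock. CD68, a lysosomal protein marking macrophages, made up most of that sum, with 94.9 and 131 FPKM in shDUSP23 and 24.4 and 23.5 FPKM in shMock. The part of these marker changes in the host gene results was not tested. In bulk RNA, fewer cells of a type and less RNA per cell cannot be told apart.

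The snoRNA hosts were mostly lower in shDUSP23. Of 23 tested snoRNA hosts, 16 fell and 2 rose, against 22.2% of all 13691 tested genes called lower and 23.1% called higher (45.3% called in all). Their median log2 fold change was -0.80, where that of all tested genes was 0.03. Of the 23, 9 fell at least 2-fold, as did 1220 of all 13691 tested genes. Of 21 tested microRNA hosts, 5 rose (23.8%) and 1 fell (4.76%), with a median log2 fold change of 0.12. The share that rose was near the 23.1% of all tested genes. Without shMock replicate 2 the median was -0.89 for snoRNA hosts and 0.08 for microRNA hosts, where that of all tested genes was 0.01. With either shMock library left out, fewer members of both classes were called, and so were fewer genes of all types. The other 1060 tested lncRNA genes had a median of 0.27, with 288 called higher and 85 called lower, or 27.2% and 8.02%. A gene was called where limma gave it a p under 0.05 after Benjamini-Hochberg adjustment over every tested gene. Fold changes are shDUSP23 minus shMock on the log2(FPKM + 0.5) scale, where changes of weakly expressed genes come out too small.

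Added up, the 24 snoRNA hosts reached 1205 and 1143 FPKM in shDUSP23, against 2065 and 2301 FPKM in shMock. The means were 1174 ± 44.1 in shDUSP23 and 2183 ± 166 in shMock (SD, n = 2 each), a ratio of 0.538 with no overlap between groups. The same genes took 0.275% and 0.256% of all FPKM in shDUSP23, against 0.382% and 0.398% in shMock. The 27 microRNA hosts summed to 123 and 113 FPKM in shDUSP23, against 95.7 and 106 FPKM in shMock, a ratio of 1.17. As a class the snoRNA hosts were also the more abundant: their tested members had a median level of 29.5 FPKM over the 4 libraries, and the microRNA hosts 2.18 FPKM. The difference between the classes was not tested, and calls are harder to reach at the lower levels of the microRNA hosts.

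Gene by gene, the shDUSP23 libraries were both under the lower shMock library for 19 of the 23 tested snoRNA hosts and both over the higher one for 2. Over all tested genes these shares were 36.2% below and 39.3% above. Among the 21 tested microRNA hosts, 8 lay wholly below, 9 wholly above and 4 overlapped. The sum of FPKM itself was lower in shDUSP23, at 438604 and 446982, against 540163 and 578361 in shMock. Scaling every library to the same sum gave a median of 0.34 over all genes and made 75.7% of the calls higher, in place of 51.0% as deposited, with 5279 genes called higher (38.4%) and 1693 called lower (12.3%). On that scale the snoRNA hosts had a median of -0.51 with 10 called lower and 3 higher, and the microRNA hosts a median of 0.34 with 6 called higher and 1 lower.

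**Figure D1:**
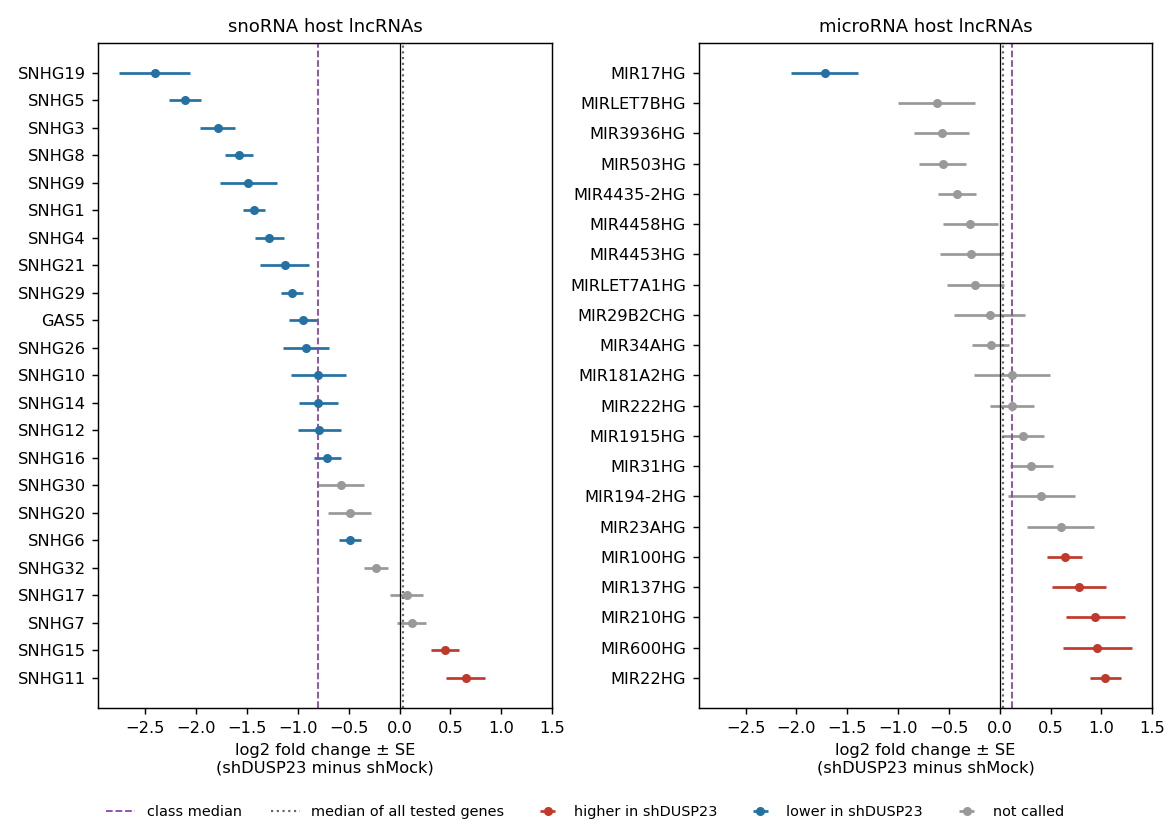
Log2 fold change (shDUSP23 minus shMock, x axis) with its standard error for each tested snoRNA host (left) and microRNA host (right), ordered from lowest to highest. Blue points fell, red points rose and grey points were not called, with the class median dashed (-0.80 left, 0.12 right) and the median of all tested genes dotted (0.03).

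In 10 hosts every snoRNA gene inside the span whose name gives its class was of the box C/D kind, by the RefSeq gene table and without regard to strand; SNHG1 also holds LOC124900306, a snoRNA gene whose name gives none. Of these 10, 8 fell (80.0%, against 22.2% of all tested genes), 0 rose and 2 were not called, with a median log2 fold change of -0.86. SNHG5 carries SNORD50A and SNORD50B and lies at chr6:85660943-85678748 on the minus strand (GRCh38). It had 115 and 89.3 FPKM in shDUSP23, against 390.2 and 494 FPKM in shMock. Both shDUSP23 libraries thus held less than any shMock library by a wide margin, and SNHG5 fell by 2.11 on the log2 scale (SE 0.16, limma adjusted p = 6.36e-05). SNHG19, the short host of SNORD60, had 3.47 and 9.0 FPKM in shDUSP23 and 28 and 36.6 FPKM in shMock. It fell by 2.41 (SE 0.35, limma adjusted p = 0.000996), the lowest value among the members, and its shDUSP23 libraries differed from each other more than those of SNHG5 did. About 32 and 130 fragments stood behind the SNHG19 values in shDUSP23, and 204 and 317 in shMock.

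SNHG1, first known as the host of a row of C/D snoRNAs that includes SNORD22 and SNORD27, had 41.5 and 40.4 FPKM in shDUSP23, against 108 and 115 FPKM in shMock. The groups stood apart and replicates lay close together, with a fall of 1.43 (SE 0.11, limma adjusted p = 7.40e-05). SNHG29, which carries SNORD49A, SNORD49B and SNORD65, was the most abundant tested member in shDUSP23, with 224 and 221 FPKM there, against 442 and 485 FPKM in shMock. It fell by 1.06 (SE 0.11, limma adjusted p = 0.000238). The span of SNHG29 overlaps LRRC75A, a protein-coding gene on the opposite strand, which had 6.09 and 5.49 FPKM in shDUSP23 and 3.13 and 2.51 FPKM in shMock. LRRC75A rose by 0.93 (SE 0.22, limma adjusted p = 0.0102), so the overlapping genes moved in opposite directions; the strand setting of the counting is not known.

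The snoRNAs of the 4 C/D hosts with the lowest fold changes that had a sequence in the tables are shown because they are what the falling transcripts carry. They are GENCODE 29 transcripts on GRCh38, from chromosome 6 minus strand, 16 minus strand, 11 minus strand and 17 plus strand in that order, with the C box TGATGA and the D box CTGA in capitals.
SNORD50B: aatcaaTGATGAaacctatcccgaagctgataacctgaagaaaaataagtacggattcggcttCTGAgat
SNORD60: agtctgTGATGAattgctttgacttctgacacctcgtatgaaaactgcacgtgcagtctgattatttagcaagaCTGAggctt
SNORD27: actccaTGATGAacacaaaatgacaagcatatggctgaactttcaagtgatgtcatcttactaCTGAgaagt
SNORD49A: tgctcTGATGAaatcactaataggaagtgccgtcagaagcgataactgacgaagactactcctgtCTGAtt
Each holds 1 C box near its start and a D box a few bases from its end, the pair of boxes that binds the core proteins.

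The other C/D hosts that were called lower changed less. SNHG16, host of SNORD1A, SNORD1B and SNORD1C, had 27.9 and 24.8 FPKM in shDUSP23 and 45.6 and 41.4 FPKM in shMock, and fell by 0.71 (SE 0.13, limma adjusted p = 0.00306). SNHG14, the long host of the SNORD116 copies in the imprinted region of chromosome 15, had 9.06 and 13.3 FPKM in shDUSP23 and 19.5 in both shMock libraries, and fell by 0.80 (SE 0.19, limma adjusted p = 0.0104). SNRPN overlaps SNHG14 on the same strand, so fragments of the 2 genes may be shared, and it had 19.7 and 28.6 FPKM in shDUSP23, against 37.3 and 39.2 FPKM in shMock. SNHG26, host of SNORD93, had 3.92 and 6.14 FPKM in shDUSP23, against 9.74 and 9.73 FPKM in shMock, and fell by 0.92 (SE 0.23, limma adjusted p = 0.0116). In all 3 genes both shDUSP23 libraries were below both shMock libraries. With equal sums of FPKM none of the 3 kept its call (adjusted p = 0.0592 for SNHG16, 0.0692 for SNHG14 and 0.0524 for SNHG26). SNHG14 and SNHG26 also lost it without either shMock library and with the correction for GC content and length.

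SNHG6, host of SNORD87 and among the more abundant members, had 123 and 117 FPKM in shDUSP23 and 160.1 and 178 FPKM in shMock. It fell by 0.49 (SE 0.11, limma adjusted p = 0.00884), but with the correction for GC content and length its fold change was 0.05 (adjusted p = 0.651), so its direction depended on that correction. Equal sums (-0.16, adjusted p = 0.284) and leaving out shMock replicate 2 (adjusted p = 0.0546) also ended the call. SNHG32, host of SNORD48 and SNORD52, was not called, with 97.8 and 90.3 FPKM in shDUSP23 and 117 and 105 FPKM in shMock (log2 fold change -0.23, limma adjusted p = 0.139). SNHG30, host of SNORD7, averaged 3.43 FPKM in shDUSP23, where its libraries were alike, and 5.44 ± 1.12 FPKM in shMock (SD, n = 2), with a limma adjusted p of 0.0655.

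In 8 hosts every snoRNA gene whose name gives its class was of the H/ACA kind; SNHG17 also holds LOC124904974, whose name gives none. Of the 8, 4 fell (against 22.2% of all tested genes), 2 rose (25.0%, against 23.1%) and 2 were not called. The median log2 fold change was -0.61. SNHG3, host of SNORA73A and SNORA73B, had 6.05 and 5.48 FPKM in shDUSP23, against 19.2 and 23.4 FPKM in shMock. It fell by 1.79 (SE 0.17, limma adjusted p = 0.000154). Its span overlaps RCC1, the exchange factor of the GTPase Ran, on the same strand, and RCC1 had 7.60 and 9.78 FPKM in shDUSP23 and 23.8 and 27.0 FPKM in shMock. Fragments of SNHG3 and RCC1 may have been shared between them in the counting.

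SNHG8, host of SNORA24, had 36.6 and 28.5 FPKM in shDUSP23 and 93.9 and 101 FPKM in shMock, and fell by 1.58 (SE 0.14, limma adjusted p = 0.000131). SNHG4, host of SNORA74A and SNORA74D, had 14 and 12.4 FPKM in shDUSP23 and 32.1 and 33.0 FPKM in shMock, a fall of 1.28 (SE 0.14, limma adjusted p = 0.000257). In both the groups lay far apart compared with the spread of their replicates. An entry of MATR3, a nuclear matrix protein, overlaps SNHG4 on the same strand, so fragments of the 2 genes may be shared. That entry had 3.65 and 2.40 FPKM in shDUSP23 and 9.03 and 14.7 FPKM in shMock, and fell by 1.79 (SE 0.28, limma adjusted p = 0.00132). SNHG9, the host of SNORA78, had 6.87 and 12.0 FPKM in shDUSP23 and 21.2 and 33.0 FPKM in shMock, and fell by 1.49 (SE 0.28, limma adjusted p = 0.00312). Its replicates spread widely, with about 51 and 139 fragments in shDUSP23 and 124 and 229 in shMock.

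SNHG15 and SNHG11 rose, a share of the H/ACA hosts near that of all tested genes called higher. SNHG15, host of SNORA9 and one of the most abundant members, had 181 and 199.6 FPKM in shDUSP23, against 122 and 157 FPKM in shMock, and rose by 0.45 (SE 0.14, limma adjusted p = 0.0314). SNHG11, host of SNORA60 and SNORA71E, had 16.7 and 22.4 FPKM in shDUSP23, against 11 and 13.3 FPKM in shMock, and rose by 0.65 (SE 0.19, limma adjusted p = 0.0207). Neither gene's groups overlapped. Without shMock replicate 1 SNHG15 had 0.27 (adjusted p = 0.154) and SNHG11 an adjusted p of 0.145, and both lost their call without shDUSP23 replicate 2 (adjusted p = 0.123 and 0.0827 in the same order). With equal sums both were higher by more, at 0.79 and 0.98.

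The groups of SNHG7 and SNHG17 overlapped. SNHG7, host of SNORA17A and SNORA17B, had 37.8 and 32.6 FPKM in shDUSP23 and 30.1 and 34.8 FPKM in shMock (log2 fold change 0.12, limma adjusted p = 0.524). SNHG17, host of several SNORA71 copies, had 31.5 and 42.4 FPKM in shDUSP23 and 32.8 and 37.2 FPKM in shMock (0.07, limma adjusted p = 0.766). SNHG7 was called higher with equal sums (0.45, adjusted p = 0.0285). The H/ACA snoRNAs of a host that fell, SNHG8, and of a host that rose, SNHG15, are shown side by side, with the ACA box in capitals, from GENCODE 29 on chromosome 4 plus strand and chromosome 7 minus strand.
SNORA24: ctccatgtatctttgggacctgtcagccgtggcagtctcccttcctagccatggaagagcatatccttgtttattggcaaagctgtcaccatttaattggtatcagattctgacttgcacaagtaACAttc
SNORA9: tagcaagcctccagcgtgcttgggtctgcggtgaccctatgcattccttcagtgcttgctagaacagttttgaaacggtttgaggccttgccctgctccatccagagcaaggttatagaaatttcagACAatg
Both end with the ACA box followed by a short tail, which is the form of the H/ACA class.

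GAS5, named for its build-up in growth-arrested cells, carries 10 box C/D genes and 1 H/ACA gene in its span (chr1:173863900-173867991, minus strand). It had 189.8 and 148 FPKM in shDUSP23 and 324 and 325 FPKM in shMock, and fell by 0.95 (SE 0.14, limma adjusted p = 0.000975). Its shMock libraries were nearly equal and both stood above the shDUSP23 libraries. SNHG12, with 3 H/ACA genes and SNORD99, had 26.6 and 17.0 FPKM in shDUSP23 and 40.4 and 34.0 FPKM in shMock, and fell by 0.79 (SE 0.21, limma adjusted p = 0.0152), a call lost with equal sums (adjusted p = 0.101) and without either shMock library (adjusted p = 0.120 and 0.0563).

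The scaRNA hosts were expressed at low levels. SNHG21, host of SCARNA15, had 2.51 and 2.45 FPKM in shDUSP23 and 5.0 and 7.18 FPKM in shMock, and fell by 1.13 (SE 0.24, limma adjusted p = 0.00629), which was not called without shMock replicate 2 (adjusted p = 0.105). SNHG10, host of SCARNA13, had 2.08 and 2.51 FPKM in shDUSP23 and 3.54 and 5.34 FPKM in shMock, and fell by 0.80 (SE 0.27, limma adjusted p = 0.0388), a call that 7 of 15 alternatives ended. Both genes were lower in each shDUSP23 library than in any shMock library. SNHG20, host of SCARNA16, averaged 3.84 ± 0.541 FPKM in shDUSP23 and 5.59 ± 0.158 FPKM in shMock (SD, n = 2 each) and was not called (limma adjusted p = 0.0880). The remaining snoRNA host, SNHG28, was under the mean of 1 FPKM required for a test, with 0 in both shDUSP23 libraries and 0.125 and 0.263 FPKM in shMock. SNHG1, SNHG3, SNHG4, SNHG5, SNHG8, SNHG9, SNHG19, SNHG29 and GAS5 kept their calls in all 16 alternatives tried.

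**Figure D2:**
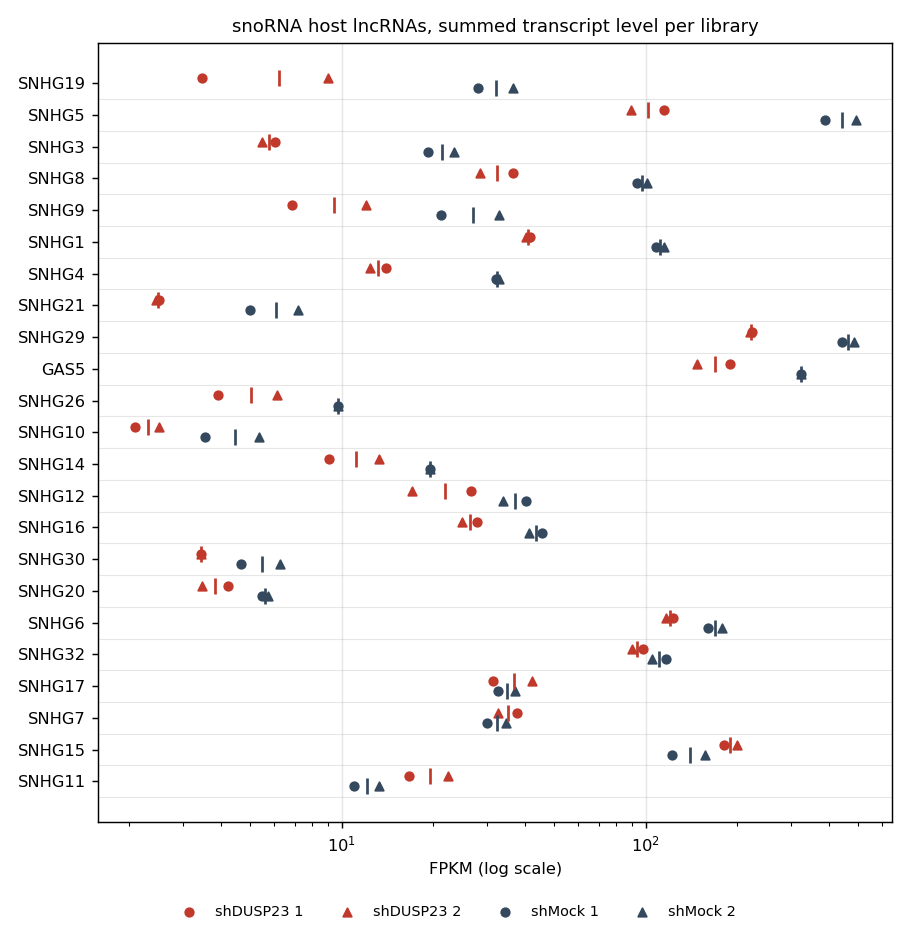
FPKM of each tested snoRNA host (x axis, log scale) in the 2 shDUSP23 libraries (red) and the 2 shMock libraries (dark), with a bar at each group mean, ordered by fold change. Red lies left of dark without overlap in 19 genes from SNHG19 to SNHG32, overlaps in SNHG17 and SNHG7, and lies right in SNHG15 and SNHG11.

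Transcription start sites of the hosts were compared for the letters CTTT within 10 bases of the start on the sense strand, a short stand-in for the pyrimidine tract of translation-machinery genes. In the RefSeq promoter table (GRCh38.p14), 8 of 21 snoRNA host starts held it (38.1%), as did 8 of 39 microRNA host starts (20.5%) and 3184 of all 35116 starts (9.07%). The 8 snoRNA hosts were SNHG4, SNHG5, SNHG8, SNHG12, SNHG16, SNHG19, SNHG29 and SNHG32, of which 7 fell and SNHG32 was not called. Of the 12 tested snoRNA hosts in the promoter table without it, 7 fell too (GAS5, SNHG1, SNHG3, SNHG10, SNHG14, SNHG21 and SNHG26), 1 rose and 4 were not called. Of all tested snoRNA hosts 69.6% fell, and of all tested genes 22.2%. The difference between hosts with and without the letters was not tested. As a contrast, CACGTG, which reads the same on both strands, stood anywhere in the window of 250 bases before to 50 after the start at 2 snoRNA host starts (9.52%), at 0 microRNA host starts and at 7.26% of all starts. A match is a description of these letters, and none says only that they are not in the window. Shown are 30 bases either side of the start for 4 hosts that fell with the letters, 1 that fell without them near its start (SNHG1) and 1 with them that was not called (SNHG32). CTTT near the start is in capitals. The coordinates are chr6:85678704-85678763 (minus), chr16:2155329-2155388 (minus), chr4:118278732-118278791 (plus), chr5:139274071-139274130 (plus), chr11:62855856-62855915 (minus) and chr6:31834886-31834945 (plus), in the order of the lines.
SNHG5: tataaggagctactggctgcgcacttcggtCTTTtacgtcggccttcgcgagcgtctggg
SNHG19: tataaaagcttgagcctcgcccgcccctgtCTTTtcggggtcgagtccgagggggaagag
SNHG8: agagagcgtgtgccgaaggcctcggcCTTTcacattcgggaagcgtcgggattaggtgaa
SNHG4: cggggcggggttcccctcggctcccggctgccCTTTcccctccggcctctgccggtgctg
SNHG1: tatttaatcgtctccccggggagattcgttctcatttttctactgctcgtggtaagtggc
SNHG32: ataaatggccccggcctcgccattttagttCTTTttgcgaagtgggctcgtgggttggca
The start of SNHG32 has the same letters at the same place as those of SNHG5 and SNHG19, and SNHG32 was not called.

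MIR22HG, the host of miR-22 at chr17:1711493-1716251 (minus strand), was the most abundant microRNA host in shDUSP23. It had 33.9 and 36.7 FPKM in shDUSP23 and 15.1 and 18.8 FPKM in shMock, and rose by 1.04 (SE 0.15, limma adjusted p = 0.000969). About 2227 and 3879 fragments lay behind it in shDUSP23 and 767 and 1150 in shMock, and it kept its call in all 16 alternatives. MIR17HG, host of the miR-17 cluster that promotes cell cycling (chr13:91347820-91354577, plus strand), was the only member of the class that fell. Its level was 0.837 and 0.374 FPKM in shDUSP23 and 2.99 and 3.13 FPKM in shMock, a fall of 1.72 (SE 0.33, limma adjusted p = 0.00367). Both shDUSP23 libraries were far below shMock, yet the call was lost without shMock replicate 1 (adjusted p = 0.0521) or replicate 2 (adjusted p = 0.0648).

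The other 4 called microRNA hosts rose and had lower levels than MIR22HG. MIR100HG, which carries miR-100, let-7a-2 and miR-125b-1, had 12.1 and 10.8 FPKM in shDUSP23 and 6.80 and 7.53 FPKM in shMock, and rose by 0.64 (SE 0.17, limma adjusted p = 0.0161). MIR210HG, host of the hypoxia-responsive miR-210, had 2.61 and 2.87 FPKM in shDUSP23 and 0.978 and 1.43 FPKM in shMock, and rose by 0.94 (SE 0.29, limma adjusted p = 0.0297). Neither gene's groups overlapped. MIR137HG, host of miR-137, a microRNA studied mostly in neurons, had 5.08 and 3.51 FPKM in shDUSP23 and 2.59 and 1.97 FPKM in shMock, and rose by 0.78 (SE 0.27, limma adjusted p = 0.0448). MIR600HG, host of miR-600, had 1.47 and 1.74 FPKM in shDUSP23 and 0.456 and 0.709 FPKM in shMock, and rose by 0.96 (SE 0.34, limma adjusted p = 0.0479). In each of these 4 genes both shDUSP23 libraries were above both shMock libraries. All 4 lost their call without shMock replicate 1 (adjusted p = 0.108, 0.191, 0.102 and 0.252 in the order above) and without shMock replicate 2 (0.0708, 0.0878, 0.256 and 0.145). MIR600HG also lost it with the replicate block (adjusted p = 0.0579) and with the correction for GC content and length (0.59, adjusted p = 0.196). In all, 9 of 15 alternatives ended the call of MIR600HG and 6 of 15 that of MIR137HG.

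The main mature microRNAs inside the 6 called hosts are shown with the seed, bases 2 to 8, in capitals, from RefSeq on GRCh38.p14. The first 6 lines belong to MIR17HG, and the rest belong to the hosts that rose.
hsa-miR-17-5p: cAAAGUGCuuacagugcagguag
hsa-miR-20a-5p: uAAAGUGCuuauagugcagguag
hsa-miR-18a-5p: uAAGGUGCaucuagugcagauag
hsa-miR-19a-3p: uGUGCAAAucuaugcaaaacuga
hsa-miR-19b-3p: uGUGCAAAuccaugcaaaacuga
hsa-miR-92a-3p: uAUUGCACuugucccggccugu
hsa-miR-22-3p: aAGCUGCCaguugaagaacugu
hsa-miR-100-5p: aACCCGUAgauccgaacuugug
hsa-let-7a-5p: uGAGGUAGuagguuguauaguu
hsa-miR-125b-5p: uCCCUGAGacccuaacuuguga
hsa-miR-210-3p: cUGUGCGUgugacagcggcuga
hsa-miR-137-3p: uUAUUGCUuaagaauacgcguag
hsa-miR-600: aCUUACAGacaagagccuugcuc
Within MIR17HG, miR-17-5p and miR-20a-5p share the seed AAAGUGC and miR-19a-3p and miR-19b-3p share GUGCAAA. Among those shown, no seed of a microRNA in MIR17HG was shared with one in a host that rose.

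The 15 tested microRNA hosts without a call had values on both sides. MIR4435-2HG, the most abundant of them, had 21.2 and 14.8 FPKM in shDUSP23 and 21.7 and 26.2 FPKM in shMock (log2 fold change -0.42, limma adjusted p = 0.105). Its near copy elsewhere on chromosome 2, CYTOR, had 19.3 and 16.2 FPKM in shDUSP23 and 33.3 and 39.5 FPKM in shMock and fell by 1.02 (SE 0.15, limma adjusted p = 0.00111). Reads of the 2 copies may have been split between them, so the value of MIR4435-2HG is uncertain. Hosts with means above 3 FPKM in both groups included MIR34AHG, the host of the p53 target miR-34a, with 6.51 ± 0.0227 FPKM in shDUSP23 and 6.97 ± 0.492 FPKM in shMock, and MIR222HG with 5.94 ± 1.24 FPKM in shDUSP23 and 5.40 ± 0.805 FPKM in shMock (SD, n = 2 each). MIR31HG, whose span overlaps the interferon gene IFNE on the same strand, had 6.59 ± 1.19 FPKM in shDUSP23 and 5.18 ± 0.669 FPKM in shMock. In the same range, MIR1915HG had 5.22 ± 0.288 FPKM in shDUSP23 and 4.38 ± 0.528 in shMock, and MIR503HG had 3.31 ± 0.576 FPKM in shDUSP23 and 5.12 ± 0.644 in shMock. The spread between replicates was of the size of the difference in MIR222HG, whose groups overlapped.

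At lower levels, MIR3936HG averaged 2.38 FPKM in shDUSP23 and 3.84 in shMock, and MIRLET7A1HG, host of a let-7 cluster, 1.95 FPKM in shDUSP23 and 2.41 in shMock. MIR4458HG averaged 1.89 FPKM in shDUSP23 and 2.42 in shMock, and MIR4453HG 1.28 FPKM in shDUSP23 and 1.69 in shMock. MIRLET7BHG, host of let-7b, averaged 1.07 FPKM in shDUSP23 and 1.81 in shMock, and MIR29B2CHG, host of miR-29b-2 and miR-29c, 1.0 FPKM in shDUSP23 and 1.12 in shMock. On the other side, MIR194-2HG averaged 1.52 FPKM in shDUSP23 and 1.04 in shMock, MIR23AHG 1.47 FPKM in shDUSP23 and 0.803 in shMock, and MIR181A2HG 1.10 FPKM in shDUSP23 and 0.940 in shMock. Hosts of the let-7 family thus appeared among genes without a call (MIRLET7A1HG, MIRLET7BHG) and among those that rose (MIR100HG). Under 1 FPKM and untested were MIR193BHG, MIR4500HG, MIR762HG, MIR9-1HG, MIR9-3HG and MIR99AHG, with group means of 0.216 to 0.632 FPKM in shDUSP23 and 0.118 to 0.820 FPKM in shMock. No microRNA gene lay within the listed span of MIR503HG or MIR9-3HG, so these are members by name.

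**Figure D3:**
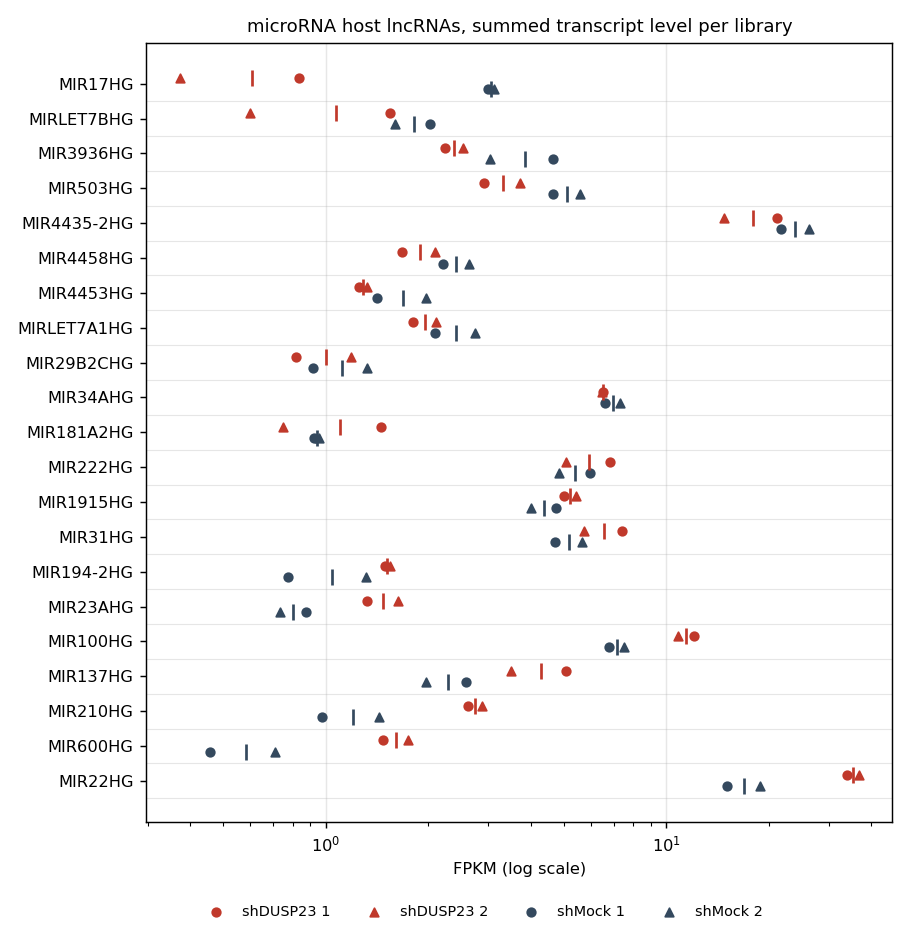
FPKM of each tested microRNA host (x axis, log scale) in the 2 shDUSP23 libraries (red) and the 2 shMock libraries (dark), with a bar at each group mean, ordered by fold change. Most genes lie under 10 FPKM, with MIR17HG left in red at 0.837 and 0.374 FPKM and MIR22HG right in red at 33.9 and 36.7 FPKM.

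At the level of single transcripts fewer calls were made. With transcripts as features, 1554 of 37453 were called (4.15%), of which 636 (1.70%) were higher and 918 (2.45%) lower. Of 207 listed transcripts of snoRNA hosts 134 were tested, with 8 called lower and 0 higher. Of 72 transcripts of microRNA hosts 23 were tested, with 0 called by limma. The 8 lower transcripts were GAS5-218, GAS5-230, SNHG1-211, SNHG3-201, SNHG4-202, SNHG5-277, SNHG29-209 and SNHG29-243, all from genes that fell. SNHG5-277, which held 55.2% to 65.2% of its gene, had 70.6 and 49.2 FPKM in shDUSP23, against 254 and 302 FPKM in shMock, and fell by 2.22 (SE 0.21, limma adjusted p = 0.0301). MIR22HG-208, which held 80.7% to 90.7% of MIR22HG, had 30.0 and 33.2 FPKM in shDUSP23 and 12.2 and 16.1 FPKM in shMock (log2 fold change 1.15, limma adjusted p = 0.0543).

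Transcripts of 1 gene did not always follow its sum. SNHG29-243 had 54.0 and 46.9 FPKM in shDUSP23, against 143 and 144 FPKM in shMock, and fell by 1.5 (SE 0.12, limma adjusted p = 0.0285). SNHG29-247 of the same gene had 40.7 and 48.7 FPKM in shDUSP23 and 54.3 and 35.7 FPKM in shMock (log2 fold change 0.02, limma adjusted p = 0.973). In SNHG8 the division among transcripts differed between libraries of 1 group: SNHG8-205 had 4.62 and 23.2 FPKM in shDUSP23 and 49.8 and 52.1 FPKM in shMock, and SNHG8-201 had 16.7 and 0 FPKM in shDUSP23 and 8.14 and 7.19 FPKM in shMock. The sum of SNHG8 was steadier than either. In SNHG7, SNHG7-202 had 14.3 and 8.16 FPKM in shDUSP23 and 4.83 and 4.32 FPKM in shMock, while SNHG7-205 had 21.2 and 21.3 FPKM in shDUSP23 and 21.0 and 25.0 FPKM in shMock.

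**Figure D4:**
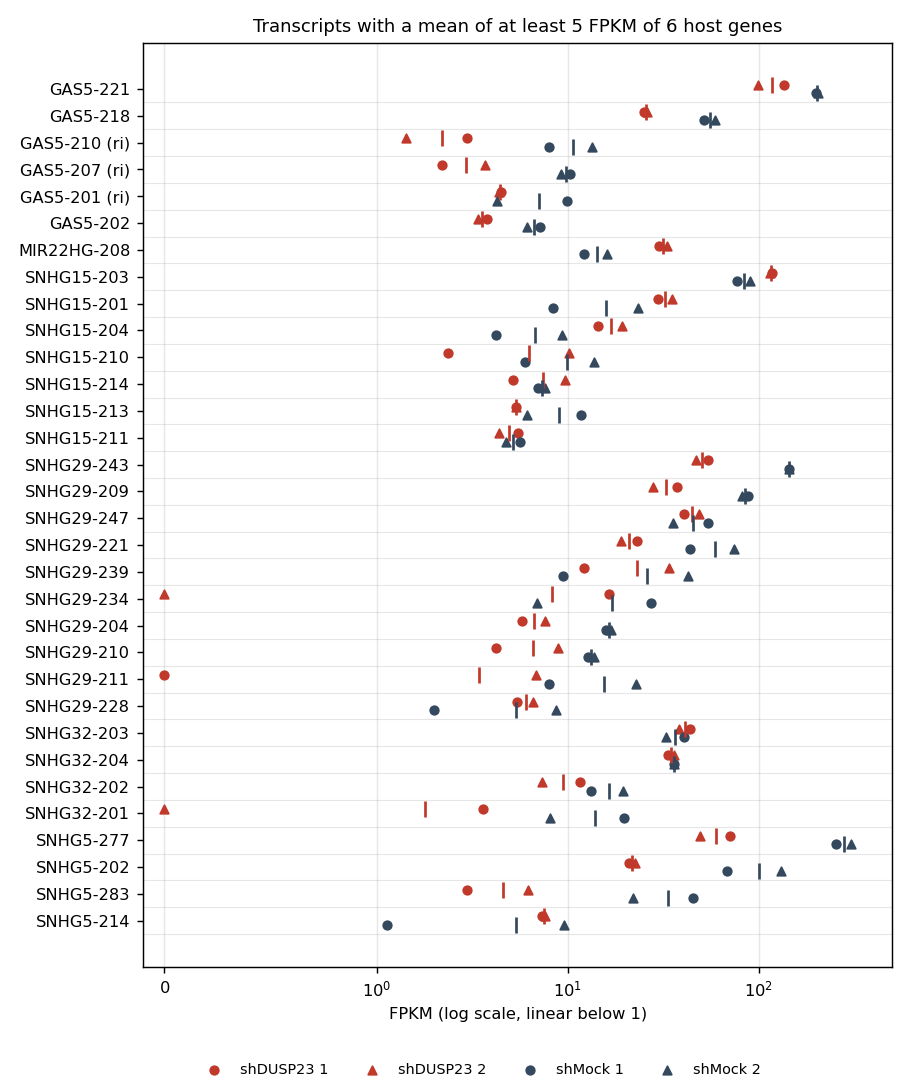
FPKM (x axis, log scale, linear below 1) of every transcript with a mean of at least 5 FPKM of GAS5, MIR22HG, SNHG15, SNHG29, SNHG32 and SNHG5 in the shDUSP23 (red) and shMock (dark) libraries, with a bar at each group mean and retained-intron transcripts marked ri. Red lies far left of dark for SNHG5-277 (70.6 and 49.2 FPKM in shDUSP23, 254 and 302 FPKM in shMock), while SNHG29-247 overlaps.

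Transcripts annotated as retaining an intron can still hold unreleased snoRNAs. They numbered 33 of the 207 snoRNA host transcripts and took 4.04% and 3.64% of the summed host FPKM in shDUSP23, against 5.78% and 4.66% in shMock. In GAS5, with 12 such transcripts of 18, the share was 11.6% and 12.8% in shDUSP23 and 18.8% and 16.6% in shMock. The GAS5 groups did not overlap, and 1 of these transcripts, GAS5-230, fell, with 1.02 and 0.851 FPKM in shDUSP23, against 5.43 and 6.60 FPKM in shMock (log2 fold change -2.18, SE 0.32, limma adjusted p = 0.0454). In SNHG12 the share was 32.3% and 58.2% in shDUSP23 and 47.0% and 52.3% in shMock, a spread within shDUSP23 larger than the difference between groups. SNHG17 went the other way without overlap, with 5.99% and 4.02% in shDUSP23 and 3.65% and 2.65% in shMock. The share was lower without overlap in SNHG1, SNHG6, SNHG14 and SNHG16. Groups overlapped in SNHG3, SNHG5, SNHG11, SNHG26 and SNHG29. These shares are descriptions without a test.

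Proteins and other hosts of the same pathways were read from lists. Of the 18 listed proteins that build snoRNA particles, 16 fell (88.9%, against 22.2% of all tested genes), 0 rose and 2 were not called. Their median log2 fold change was -0.78. FBL, the methyltransferase of C/D particles, had 73.0 and 62.5 FPKM in shDUSP23 and 165 and 174 FPKM in shMock, and fell by 1.32 (SE 0.12, limma adjusted p = 0.000135). NOLC1, a chaperone of snoRNA particles, had 22.2 and 21.8 FPKM in shDUSP23 and 59.6 and 52.3 FPKM in shMock, and fell by 1.32 (SE 0.13, limma adjusted p = 0.000160). With equal sums the median was -0.47 and 7 of the 18 were called lower, where 12.3% of all tested genes were.

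Of 36 protein-coding snoRNA hosts, most of them ribosomal protein and translation factor genes, 32 fell, 1 rose and 3 were not called. These shares were 88.9% lower and 2.78% higher, against 22.2% and 23.1% of all tested genes. Their median was -1.11. Of the 36, 22 fell at least 2-fold, as did 1220 of all 13691 tested genes. RPL23A, a ribosomal protein, had 293 and 280.1 FPKM in shDUSP23, against 959.9 and 1230.0 FPKM in shMock, and fell by 1.92 (SE 0.14, limma adjusted p = 5.37e-05). RPL3, another, had 226 and 234 FPKM in shDUSP23 and 645 and 749.5 FPKM in shMock. CFDP1, a chromatin protein, rose against the others, with 59.6 and 58.1 FPKM in shDUSP23 and 34.9 in both shMock libraries (0.75, SE 0.12, limma adjusted p = 0.00135). NOP56 and DKC1 stand in both of these lists. With equal sums the median was -0.78, with 27 called lower and 1 higher, where all tested genes had 12.3% lower and 38.4% higher.

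Of 32 tested protein-coding microRNA hosts, 11 fell, 3 rose and 18 were not called. That is 34.4% lower and 9.38% higher, against 22.2% and 23.1% of all tested genes, with a median of -0.20. With equal sums the median was 0.12, where that of all genes was 0.34, and 5 were called higher and 4 lower. MCM7, a replication helicase subunit that carries the miR-106b cluster, had 25.7 and 19.9 FPKM in shDUSP23 and 52.4 and 51.3 FPKM in shMock, and fell by 1.18 (SE 0.15, limma adjusted p = 0.000509). SMC4, the condensin subunit that carries miR-15b and miR-16-2, had 13.9 and 11.9 FPKM in shDUSP23 and 35.7 and 28.3 FPKM in shMock. KIAA1217 rose, with 18.7 and 18.5 FPKM in shDUSP23 and 8.81 and 7.24 FPKM in shMock. Among 14 genes of microRNA processing and action, 4 rose (28.6%), 2 fell (14.3%) and 8 were not called, shares near those of all tested genes (median 0.17, and 0.46 with equal sums). TNRC6C, a scaffold of the silencing complex, had 6.23 and 4.54 FPKM in shDUSP23 and 1.77 and 1.59 FPKM in shMock and rose by 1.42 (SE 0.25, limma adjusted p = 0.00262). PRKRA, a partner of Dicer, had 16.0 and 13.8 FPKM in shDUSP23 and 30.5 and 27.0 FPKM in shMock and fell by 0.93 (SE 0.15, limma adjusted p = 0.00151).

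Of 16 nonsense-mediated decay factors, 5 rose (31.2%), 3 fell (18.8%) and 8 were not called, also near the 23.1% and 22.2% of all tested genes (median 0.09, and 0.42 with equal sums, against 0.03 and 0.34 for all genes). SMG9, a regulator of the SMG1 kinase, had 55.5 and 53.8 FPKM in shDUSP23 and 30.2 and 32.4 FPKM in shMock, and PNRC2, an adaptor to decapping, had 49.2 and 52.7 FPKM in shDUSP23 and 30.9 and 28.2 FPKM in shMock. RBM8A, a core protein of the exon junction complex, fell, with 49.8 and 47.0 FPKM in shDUSP23 and 76.7 and 89.6 FPKM in shMock. Of 7 lncRNA hosts outside the name rule, 3 fell (42.9%, against 22.2% of all tested genes), 0 rose and 4 were not called. With equal sums their median was -0.08, where that of all genes was 0.34, and 1 was called lower and 1 higher. DANCR, host of SNORA26, had 7.11 and 8.22 FPKM in shDUSP23 and 12.9 and 23.5 FPKM in shMock (-1.14, limma adjusted p = 0.00796). FTX, a host of several microRNAs, had 7.91 and 7.49 FPKM in shDUSP23 and 11.3 and 12.6 FPKM in shMock (-0.60, limma adjusted p = 0.0187). ZFAS1, the most abundant of the 7, had 358 and 305 FPKM in shDUSP23 and 412 and 474 FPKM in shMock, and fell by 0.42 (SE 0.13, limma adjusted p = 0.0317), or by 0.08 with equal sums. EPB41L4A-AS1, left out of the members by the rule, had 51.7 and 43.6 FPKM in shDUSP23 and 47.5 and 45.7 FPKM in shMock, and its groups overlapped.

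**Figure D5:**
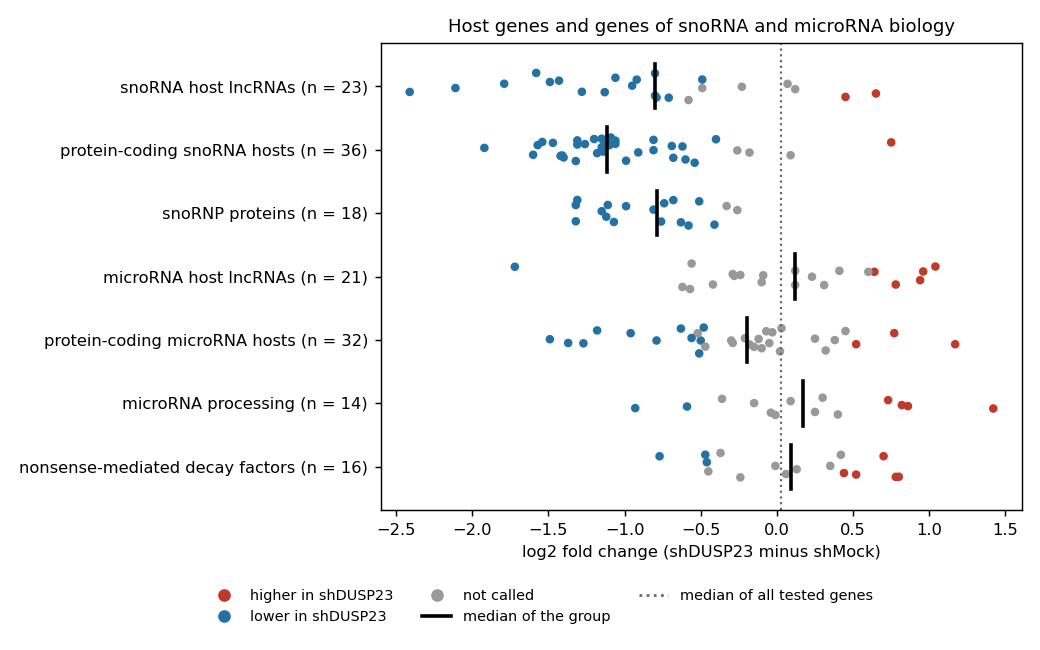
Log2 fold change (shDUSP23 minus shMock, x axis) of each tested gene in 7 groups, with blue for genes that fell, red for genes that rose, grey for genes not called, a black bar at each group median and a dotted line at the median of all tested genes (0.03). The medians of snoRNA host lncRNAs (-0.80), protein-coding snoRNA hosts (-1.11) and snoRNP proteins (-0.78) lie left of those of microRNA host lncRNAs (0.12), microRNA processing genes (0.17) and decay factors (0.09).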

How the data were processed

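RNA sequencing values of 4 A549 libraries, 2 of shDUSP23 and 2 of shMock, came as FPKM per Ensembl transcript, computed and deposited by the authors. The submitters' processing notes list GRCh38, STAR 2.7.1a and DESeq2 1.32.0, while the quantifier, annotation release and strand setting were not given in the sources used. Depth was estimated from the steps of low FPKM values (up to 50 fragments) in 2293 genes with 1 transcript, where 91.0% to 93.3% of values were whole within 0.1 fragment. FPKM were summed per gene ID. Genes whose mean reached 1 FPKM went into limma 3.58.1 in R 4.3.3 (lmFit, then eBayes with trend) as log2(FPKM + 0.5), two-sided and Benjamini-Hochberg adjusted over all 13691 genes, without covariates. A simulation for these 13691 genes had 200 changed. There the shDUSP23 against shMock fit called 0% of those changed by a log2 fold of 0.5, 17.9% at 1 and 74.2% at 2. Of its 63 calls, 2 were false. In the data 6202 genes were called, which makes the adjusted cutoff easier to pass. The simulated rates therefore do not describe the fit of the data. Count tests were not used, as the values are no counts.

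The members, gene lists and tests were chosen with earlier results of these data known. Every tested member is named, with each library's value where called or at a mean of 20 FPKM or more. From each list the 2 called genes with the smallest p and 1 against the majority are named. Overlapping neighbours, CYTOR, ZFAS1, EPB41L4A-AS1 and single transcripts were named after their values were seen. GC content and lengths were taken from GENCODE 29, which held 93.6% of transcripts, 58.1% of member transcripts and a value for 44 of 51 members. Hosted small RNAs, promoters and microRNAs came from RefSeq tables and snoRNA sequences from GENCODE. SNHG6, SNHG9, SNHG15 and MIR181A2HG were not matched in the promoter table. Python 3.11.15, pandas 2.3.3, numpy 2.4.6 and matplotlib 3.10.9 were used. Alternatives were pseudocounts, low-value filters, scalings, variance models, a replicate block, a correction for GC content and length (spline, 5 degrees of freedom), other membership, transcripts as features and leaving out each library.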

Additional observations from a re-analysis of the deposited data

How the results depend on the processing

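Of the alternatives to each member's value, 611 left the call as it was, 12 made one and 58 ended one. Among the 58 are 2 in which SNHG6 turned to 0.05, with the correction for GC content and length with or without the replicate block. Members without a call changed sign in 15 cases, over 9 members. DUSP23 kept its call, from -3.91 to -3.34.

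Equal sums of FPKM gave 5279 genes called higher and 1693 lower, 10 snoRNA hosts lower, 7 snoRNP proteins and 9 protein-coding microRNA hosts called. Class medians were then -0.51 for snoRNA hosts and 0.34 for microRNA hosts, and ratios of summed FPKM 0.680 and 1.47 in the same order. The correction for GC content and length gave snoRNA hosts a median of -0.53, with or without the block. Median-ratio rescaling left 1 snoRNA host and 3 microRNA hosts higher. Quantile normalization left 2 microRNA hosts higher and 2 lower, with a median of 0.01. Without the eBayes trend 0 snoRNA hosts were higher and 4 decay factors were called. With a mean of at least 5 FPKM, 2 microRNA hosts were called, 2 higher and 0 lower, as fewer genes were tested. Adding DLEU2, FTX, H19 and PVT1 gave 2 microRNA hosts lower. Transcripts as features gave 1554 calls, 636 higher and 918 lower. Apart from the membership and the filter, the causes were not tested.

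Leaving out 1 library at a time gave 3258 to 6391 changed genes, 1613 to 3232 higher and 1645 to 3159 lower. It gave 11 to 18 snoRNA hosts called, 10 to 16 lower and 0 to 2 higher, and 1 to 7 microRNA hosts called, 0 to 3 lower and 1 to 4 higher. The lists ranged over 9 to 16 snoRNP proteins, 3 to 8 decay factors, 7 to 16 protein-coding microRNA hosts and 0 to 5 lncRNA hosts outside the name rule. The medians were -0.92 to -0.80 for snoRNA hosts and -0.08 to 0.18 for microRNA hosts, negative without shDUSP23 replicate 1. The lowest count of changed genes came without shMock replicate 2. Where a group kept 1 library, limma took its spread from the other group.

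Same-numbered libraries had a correlation of 0.05 in their deviations from the group means. With so few libraries this cannot show whether the numbers pair the samples. With the replicate block 6707 genes changed, and 18 snoRNA hosts (16 lower, 2 higher) and 5 microRNA hosts were called. Low FPKM rest on few fragments, which limits MIR17HG, MIR210HG and SNHG19.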

Other observations

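The table also listed 3 snoRNA genes that passed the filter on low values and are no members. SNORD17 had 0.938 and 0 FPKM in shDUSP23, against 2.38 and 1.84 FPKM in shMock, and fell (limma adjusted p = 0.0297). SNORD3B-1, a copy of U3, the snoRNA needed to cut the ribosomal RNA precursor, had 2.54 and 2.47 FPKM in shDUSP23 and 0.930 and 1.05 FPKM in shMock, and rose by 1.01 (SE 0.29, limma adjusted p = 0.0206). SNORD3A, another copy, had 19.7 and 16.5 FPKM in shDUSP23 and 15.8 and 13.6 FPKM in shMock (log2 fold change 0.29, limma adjusted p = 0.174). Reads of the U3 copies may have been split between them, and an mRNA kit does not capture such RNAs evenly, so these values are given without comparison to the host transcripts.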
